A study of Arabidopsis thaliana with 24 samples.

Results

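The wild type of Arabidopsis thaliana, accession Col, was followed by RNA sequencing through the second day after its dry seeds were given water, from 24 h to 48 h of imbibition. The genes described are those with 1 TPM or more in at least 3 of the 6 libraries of these times, 17714 of the 23826 genes in the deposited table. TPM is a gene's share of its library after division by gene length, scaled to a total of 1000000 per library. Just inside the minimum lay AT1G52680, whose 3 highest values reached down to 1.00059 TPM. The study set this wild type beside ref6c, a mutant of the histone demethylase gene REF6, at 0, 6, 24 and 48 h, with 3 libraries for each genotype and time and 24 in all. All groups were after-ripened seeds, stored at room temperature and sown under long days on a Murashige and Skoog medium. Col carries no mutation or transgene according to its own genotype label, but the growth note attached to every sample, Col included, names seeds of the line ref6-1;REF6-HA, and the genotype labels were followed here. The labels give neither the number of seeds behind a library nor the share of them that had germinated, and nothing states that the libraries of a group came from separate seed batches, so p-values measure the spread between these libraries.

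A dry seed holds a complete embryo with stored protein and oil, and with protective proteins made late in seed maturation. After water uptake the embryo makes new ribosomes, loosens its cell walls and breaks through the endosperm and seed coat, and the seedling then lives on its reserves until its cotyledons are green. Abscisic acid holds germination back and gibberellin promotes it. REF6 removes the repressive mark H3K27me3 from histone H3, a mark that Polycomb proteins place on many genes of later development.

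Of the 18481 genes tested across all 24 libraries, 63.7% were called between 24 h and 48 h, 35.5% higher and 28.3% lower, at an adjusted p under 0.05 with no minimum fold. Among the 17714 members 65.2% were called: 6418 rose, which is 36.2%, and 5126 fell, which is 28.9%. The values of the 3 libraries of 48 h lay all above those of 24 h for 39.9% of the members and 39.0% of all genes tested, and all below for 31.3% and 30.6%. Log2 changes below are 48 h minus 24 h on log2(TPM + 1), given ± SE, which understates changes of low genes, and values in TPM are means ± SD of 3 libraries. The median change over all members was 0.07, with 5% of members below -0.94 and 5% above 2.06. Large rises outnumbered large falls. A log2 change of 1 or more was reached by 2511 called members upward and by 746 downward, and a change of 3 or more by 383 upward and 15 downward. Of the members, 15711 had 1 TPM or more in all 6 libraries, 1204 reached it in the 3 libraries of 48 h and in none of 24 h, and 95 the other way round. A member that passed the minimum only through the time at which it was high had to differ, so the counts in the gene lists below are descriptions. The depth recovered for the 6 libraries was 18612286 to 19260850 reads. Whether the counting used strand is not given in the sources used here. Only the 344 genes named by rule were checked for overlap with other genes. Of these, 80 overlap an annotated gene on the opposite strand, so their values may hold reads of both. CAB1, LHCB3, ICU2, RNR2A, OLEO2, MUM4 and ELF6 are among them. Fewer cells of a type and less RNA per cell cannot be told apart in whole seeds.

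**Figure D1:**
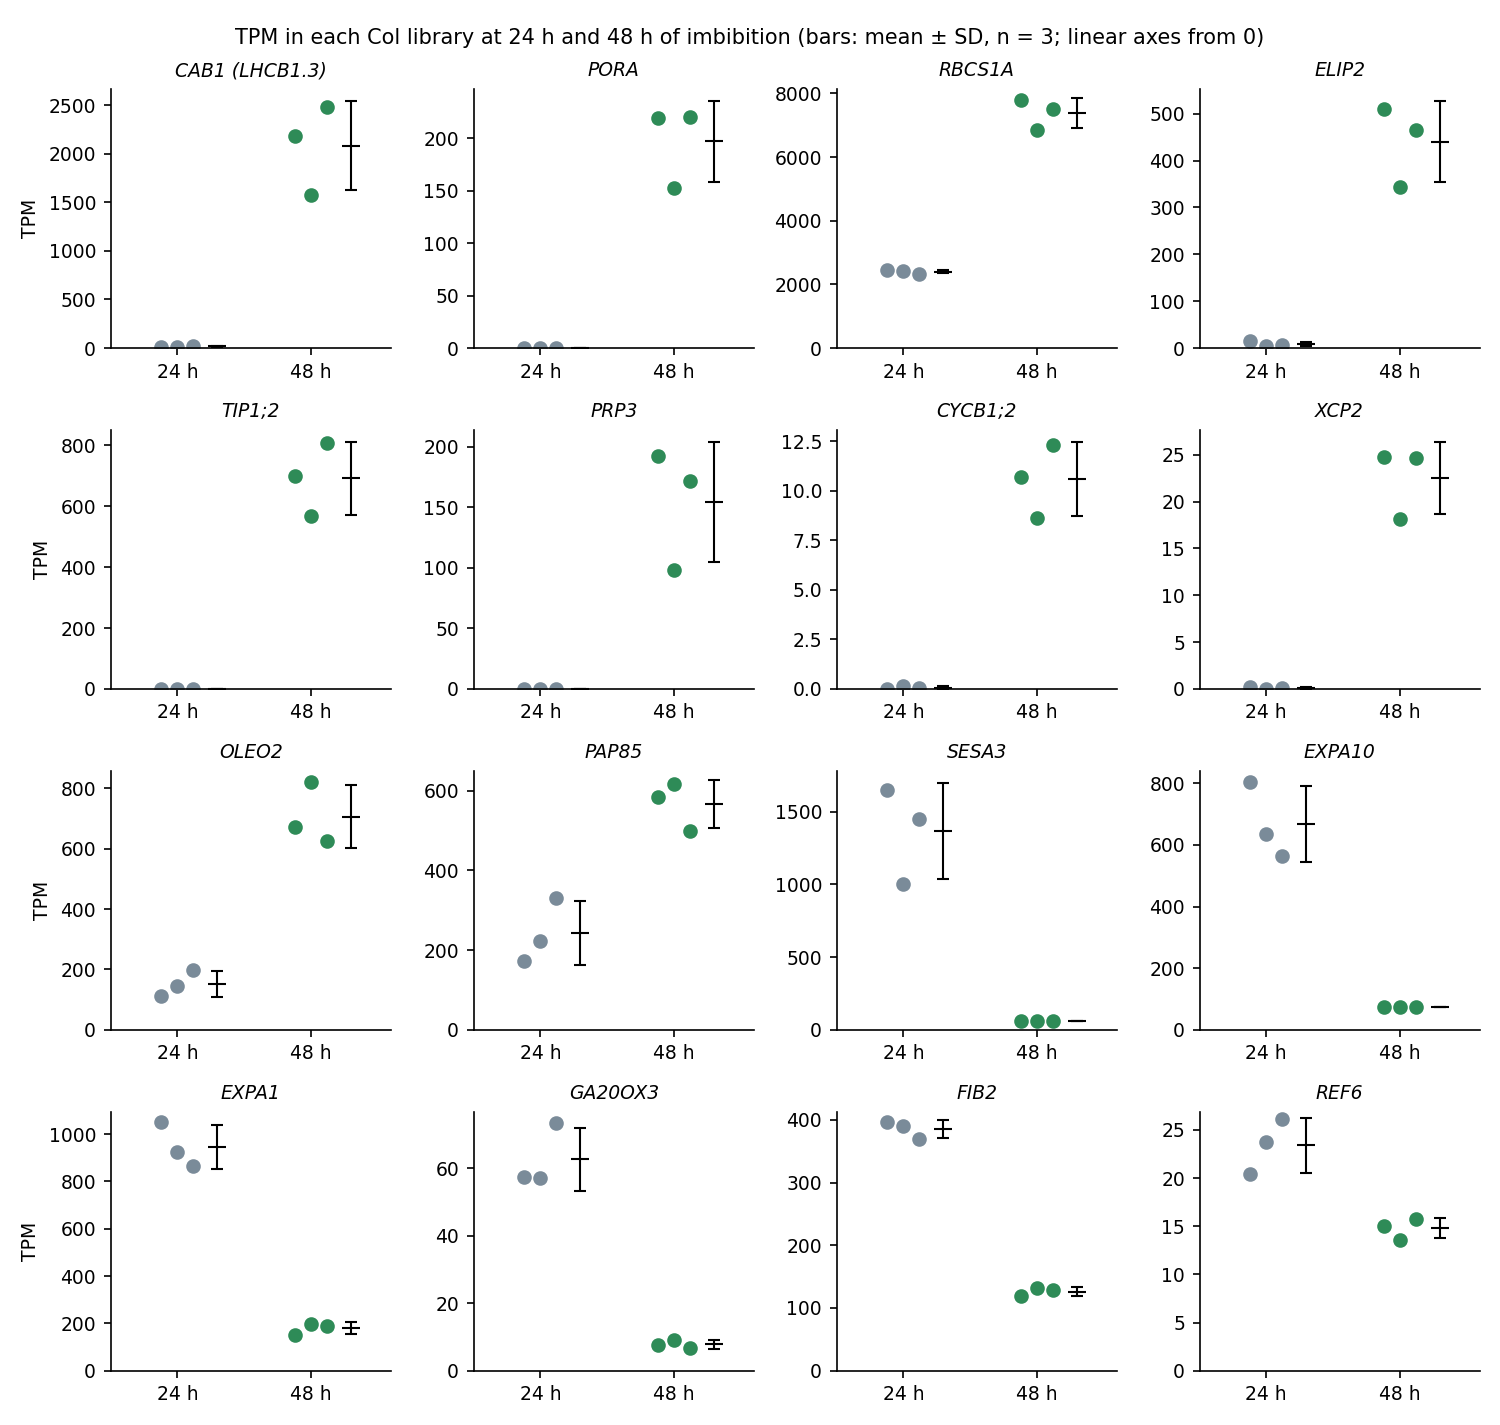
TPM of 16 genes in each of the 3 libraries of 24 h and of 48 h in Col, on linear axes that start at 0 and differ between panels. Points are libraries and bars are the mean ± SD of 3. CAB1 goes from 16.8 to 2080 TPM, and SESA3 from 1367.9 to 58.3 TPM, while OLEO2 and PAP85, both seed proteins, are higher at 48 h.

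Genes of the photosynthetic machinery rose in near unison. The antenna proteins, which bind chlorophyll and pass light energy to the photosystems, had 21 entries in their list, all members, of which 20 rose and none fell, with a median change of 4.90. The antenna gene that was not called, LHCB4.3, stood at 11.6 ± 0.319 TPM at 24 h and 11.7 ± 1.61 TPM at 48 h. CAB1 (AT1G29930), a chlorophyll a/b protein of photosystem II, had 15.4, 15.7 and 19.2 TPM in the 24 h libraries and 2185.5, 1577.4 and 2477.2 TPM in those of 48 h. The lowest 48 h library thus lay far above the highest of 24 h, and the change was 6.85 ± 0.22 (adjusted p = 1.5e-17). CAB2, CAB3, LHCB2.1 and LHCB2.2, further proteins of the same light-harvesting complex, rose by 7.82 ± 0.35, 7.33 ± 0.21, 7.22 ± 0.29 and 7.28 ± 0.31. CAB1, CAB2 and CAB3 are near-identical neighbours, as are LHCB2.1 and LHCB2.2, so the division of reads between the copies is uncertain. LHCB3 (AT5G54270), a single-copy antenna protein, rose from 8.91 ± 1.62 to 571 ± 94.0 TPM (5.85 ± 0.15, adjusted p = 4e-19). The antenna genes were not uniform. LHCA5 and LHCB7, rare members of the family, rose by only 0.40 ± 0.10 and 0.55 ± 0.11, and 4 of the 21 passed the minimum through the 48 h libraries alone.

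The nuclear genes for photosystem subunits all rose, 22 of 22, with changes from 1.09 to 6.76 and a median of 3.49. Of the 22, 3 passed the minimum through the 48 h libraries alone. PSAK (AT1G30380), a small subunit of photosystem I, had 0.824, 0.107 and 0.758 TPM at 24 h and 172, 139 and 186 TPM at 48 h, without overlap (6.76 ± 0.41, adjusted p = 9.5e-13). The smallest change was that of PSBX, a small subunit of photosystem II, which went from 403 ± 24.0 to 859 ± 11.8 TPM. All 15 genes of the Calvin cycle list, which fixes carbon dioxide, rose, with a median of 1.81. PRK (AT1G32060), phosphoribulokinase, which regenerates the carbon dioxide acceptor, rose from 4.56 ± 1.58 to 149 ± 23.7 TPM (4.78 ± 0.15, adjusted p = 8.6e-18). RBCS1A (AT1G67090), a small subunit of Rubisco, was at 2442.9, 2429.4 and 2338.1 TPM at 24 h and 7780.3, 6853.8 and 7522.7 TPM at 48 h, the fourth highest TPM of any nuclear gene at 48 h (1.62 ± 0.09, adjusted p = 2.5e-13). RBCS1B and RBCS2B, close copies that share sequence with the other small subunit genes, rose from 1.88 ± 0.355 to 72.6 ± 4.04 TPM and from 83.3 ± 10.4 to 1058.6 ± 102 TPM. Summed over the list, the antenna genes took 335 ± 29.5 TPM at 24 h and 8401.2 ± 1484.6 TPM at 48 h, and the Calvin cycle genes 3584.6 ± 116 and 12179.1 ± 854 TPM. For each sum the 3 libraries of 48 h lay above all those of 24 h, which gives 0.1 by exact permutation of the 6 sums (two-sided), the smallest p this design allows.

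Of the 20 genes of chlorophyll synthesis 19 were members and all 19 rose, with a median of 0.87. GUN4 stayed under 1 TPM. The list spread widely. PORA (AT5G54190), one of the enzymes that reduce protochlorophyllide in light, had 0.225, 0.234 and 0 TPM at 24 h and 219, 153 and 220 TPM at 48 h (7.41 ± 0.35, adjusted p = 1e-14). Its relative PORB rose by 4.16 ± 0.30, from 41.0 ± 22.8 to 695 ± 122 TPM, and PORC by 0.87 ± 0.14. GUN5, the large subunit of magnesium chelatase, rose from 5.40 ± 2.50 to 89.7 ± 22.5 TPM, whereas FLU, which restrains the pathway, moved from 204 ± 2.41 to 250 ± 2.89 TPM (0.29 ± 0.08, adjusted p = 0.0027). All 6 early light-induced and related proteins rose, with ELIP2 (AT4G14690) at 14.3, 5.38 and 5.96 TPM at 24 h and 509, 343 and 466 TPM at 48 h (5.63 ± 0.35, adjusted p = 1.6e-12). In the carotenoid list 4 of 7 genes rose, among them phytoene synthase PSY by 1.32 ± 0.11, and LYC, the lycopene cyclase, was at 40.3 ± 2.92 and 41.7 ± 3.33 TPM.

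The regulators of greening had small changes. GLK1, GLK2, HY5 and HYH, transcription factors that promote chloroplast development or light responses, rose by 0.75 ± 0.13, 0.39 ± 0.10, 0.53 ± 0.11 and 0.25 ± 0.08, while GNC and CGA1 were not called. Of 15 genes for plastid transcription and protein import 4 rose and 2 fell, with a median of 0.12. PTAC16 (AT3G46780), a protein of the plastid transcription complex, rose from 0.566 ± 0.190 to 28.7 ± 3.44 TPM (4.25 ± 0.09, adjusted p = 1.4e-20), and FLN1, another, fell from 169 ± 8.08 to 132 ± 5.54 TPM. Of 14 light receptors and phytochrome-interacting factors 5 rose and none fell, or 1 without replicate 1 of 24 h. The share that rose, 35.7%, is near the 36.2% of all members. PIL6, known as PIF5, rose from 6.02 ± 0.187 to 21.2 ± 3.39 TPM, and PHYA, PHYB and COP1 were not called. Among 13 clock genes 6 rose and 2 fell. CCA1 and LHY, morning genes, rose by 0.56 ± 0.11 and 0.34 ± 0.10, and ELF4, an evening gene, fell from 47.1 ± 5.74 to 22.1 ± 3.58 TPM. Both times are whole days of imbibition, and the hour of collection is not given in the labels. In photorespiration, which recycles a by-product of Rubisco, 7 of 10 genes rose, for example GLDP1 from 36.8 ± 4.45 to 147 ± 23.4 TPM. GOX1 and GOX2, tandem copies of glycolate oxidase, went in opposite directions, by 0.82 ± 0.09 and -0.54 ± 0.11. Of the 79 member genes encoded in the chloroplast, of 87 in the table, 28 rose and none fell. Their median was 0.31, and their sum was 16645.3 ± 275 TPM at 24 h and 24899.1 ± 2522.4 TPM at 48 h. The share of them that rose, 35.4%, is near the 36.2% of all members, while 28.9% of all members fell.

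**Figure D2:**
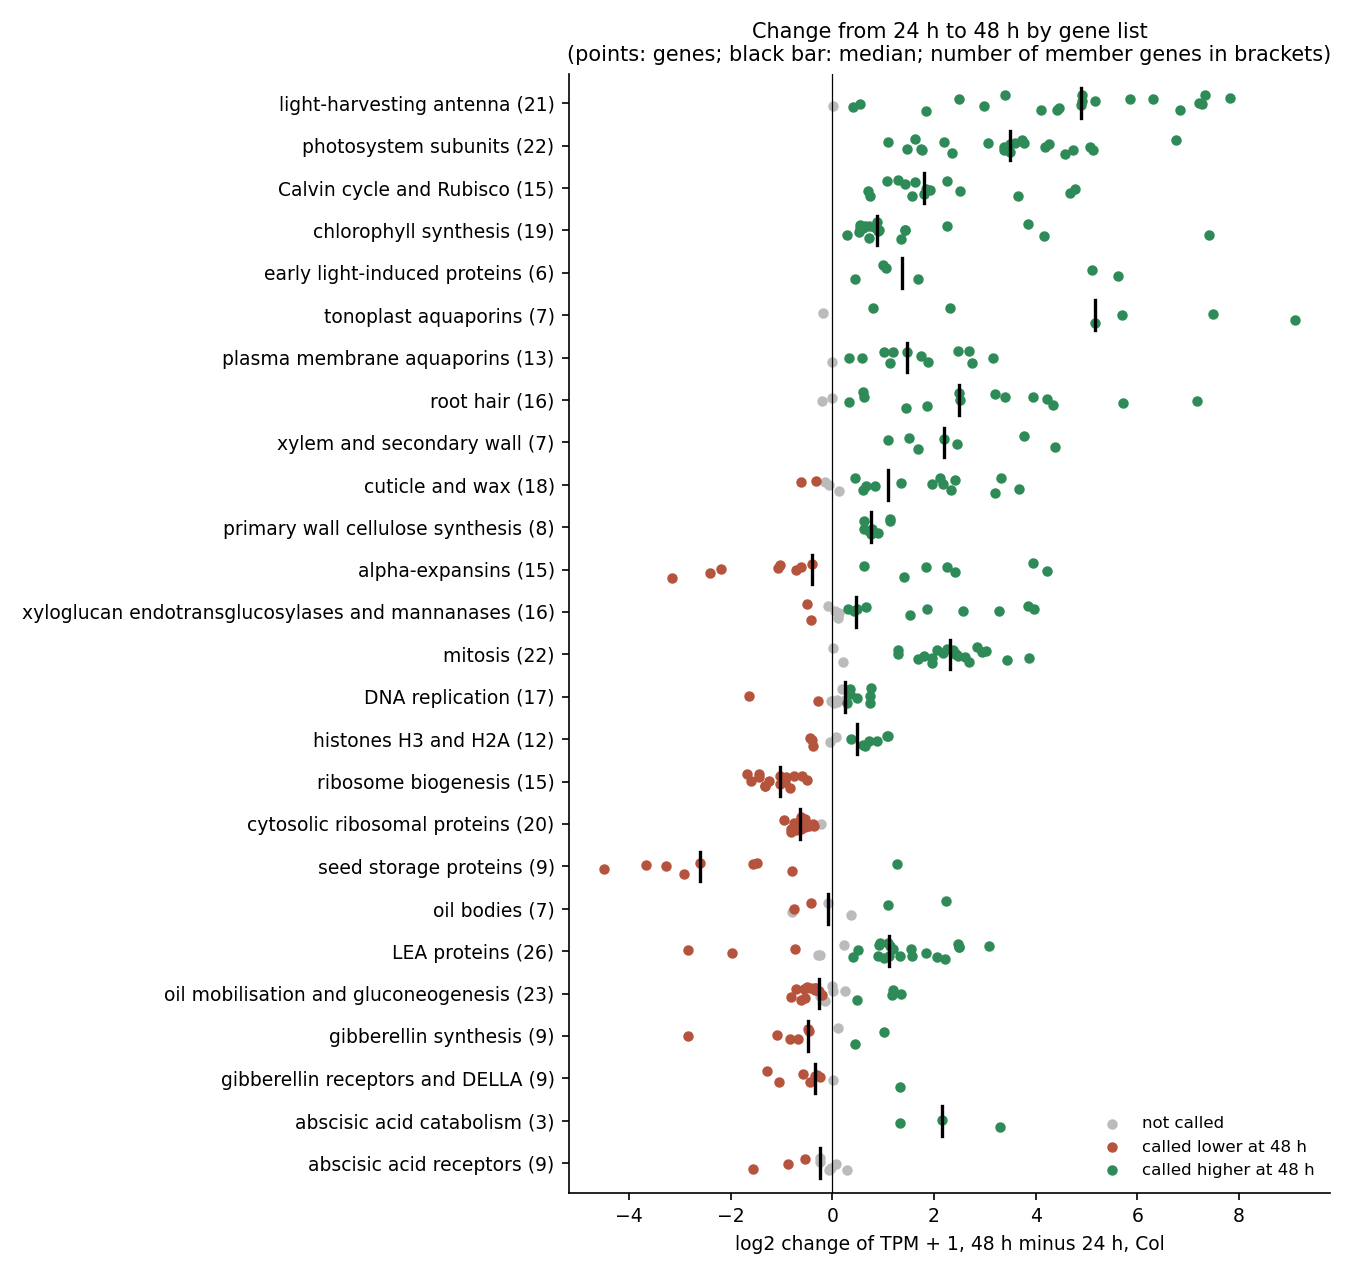
Log2 change from 24 h to 48 h in Col for each member of 26 gene lists, 1 point per gene, coloured by whether the gene was called higher, called lower or not called. Black bars are list medians and the thin vertical line is no change. The antenna genes have a median of 4.90, the tonoplast aquaporins 5.17, the storage proteins -2.6 and the ribosome biogenesis genes -1.04.

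The largest rise with a symbol was that of TIP2 (AT3G26520), the tonoplast aquaporin TIP1;2, a water channel of the vacuole membrane. It had 0.15, 0.0782 and 0.552 TPM at 24 h and 699, 569 and 806 TPM at 48 h (9.11 ± 0.25, adjusted p = 1.1e-18). GAMMA-TIP, DELTA-TIP and TIP4;1, its relatives of growing tissue, rose by 7.49 ± 0.40, 5.70 ± 0.23 and 5.17 ± 0.16. The aquaporins of the protein storage vacuole stood apart from these. TIP3;1 was at 2800 TPM at 0 h, 68.3 ± 25.8 TPM at 24 h and 57.8 ± 9.58 TPM at 48 h, not called in this step. BETA-TIP was called higher, at 24.0 ± 10.5 and 39.8 ± 5.56 TPM, but its libraries overlap and the call was lost without replicate 1 of 24 h (0.49). In all 6 of the 7 members rose, of 8 entries, with a median of 5.17, and 3 of the 7 passed through 48 h alone. At the plasma membrane 12 of 13 aquaporins rose, with a median of 1.46, led by RD28 and PIP2A, and 3 of the 13 passed the minimum through 48 h alone. PIP2A rose from 41.5 ± 9.74 to 279 ± 34.1 TPM.

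Most root hair genes rose, and 7 of the members already had 1 TPM or more in every library of 24 h. Of 17 entries 16 were members, 14 rose and none fell (1 without replicate 2 of 24 h), with a median of 2.50, and 8 of the 16 passed through the 48 h libraries alone. PRP3 (AT3G62680), a proline-rich wall protein of root hairs, had 0, 0.0866 and 0 TPM at 24 h and 192, 98.0 and 172 TPM at 48 h (7.18 ± 0.44, adjusted p = 1.1e-12). RSL4 (AT1G27740), the transcription factor that drives hair growth, had no read at 24 h and 11.1, 7.29 and 10.7 TPM at 48 h, at least 46.1-fold higher against a floor of 3 reads per library. RHD2, the NADPH oxidase of the hair tip, and the wall-loosening expansins EXPA7 and EXPA18 were likewise without a read at 24 h and at least 72.5-fold, 78.0-fold and 72.2-fold higher at 48 h. For these 5 genes replicate 2 of 48 h was the lowest of its group and was still far above 24 h. RHD6, GL2 and CPC, which set the pattern of hair cells, were present at 24 h: RHD6 rose from 21.2 ± 1.42 to 33.5 ± 1.59 TPM, GL2 rose by 0.60 ± 0.11, and CPC was at 9.63 ± 0.404 and 9.64 ± 0.881 TPM. Of the 20 largest rises, AGP3, EXT6, RHS13 and RHS19 also had no read at 24 h, and RHS13 and RHS19 carry root hair specific as their name.

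The list of xylem and secondary wall genes had 11 entries, of which 7 were members, all 7 through the 48 h libraries alone, and all 7 rose. XCP2 (AT1G20850), a protease of dying xylem cells, had 0.201, 0 and 0.141 TPM at 24 h and 24.8, 18.1 and 24.7 TPM at 48 h (4.39 ± 0.12, adjusted p = 7.8e-19). CESA4 and IRX3, cellulose synthases of the secondary wall, rose to 2.78 ± 0.810 and 2.75 ± 0.676 TPM. All 8 genes of primary wall cellulose synthesis rose with a narrow range, 0.62 to 1.14, and CESA6 went from 22.1 ± 0.699 to 50.3 ± 5.76 TPM. Of 18 member genes of cuticle and wax 13 rose and 2 fell, with a median of 1.09, and without replicate 1 of 24 h or replicate 2 of 48 h 1 fell. KCS1, which elongates fatty acids for wax, rose from 1.45 ± 0.211 to 30.5 ± 6.55 TPM, and the lipid transfer protein LTP2 (AT2G38530) had 696, 554 and 654 TPM at 24 h and 2775.8, 2638 and 2790.3 TPM at 48 h.

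The expansins divided into 2 opposite groups. These proteins loosen cell walls, and of 17 entries 15 were members, 7 rising and 8 falling. Of the 15, 4 passed the minimum through the 48 h libraries alone, so they had to be low at 24 h and higher at 48 h. Their sum fell from 6169.8 ± 224 to 3149.3 ± 349 TPM. EXPA10 (AT1G26770) had 804, 635 and 564 TPM at 24 h and 72.7, 74.8 and 73.8 TPM at 48 h (-3.15 ± 0.18, adjusted p = 2.7e-13), and EXPA1 (AT1G69530) 1049.6, 924 and 865 against 150, 197 and 190 TPM (-2.4 ± 0.14, adjusted p = 3.4e-13). EXPA2, long studied in germinating seeds, was at 2998.1 ± 113 TPM at 24 h and at 1970.5 ± 290 TPM at 48 h (-0.61 ± 0.14, adjusted p = 0.00063). The expansins that fell had 106 TPM or more at 24 h, and those that rose had 25.6 TPM or less at that time. GASA6 (AT1G74670), a small gibberellin-induced protein, fell with them from 643 ± 97.4 to 132 ± 36.3 TPM. Xyloglucan enzymes, which remodel the hemicellulose of the wall, and mannanases were mostly on the rise, 10 of 16 against 2 falling, 1 of them without replicate 1 of 24 h. XTH17 rose from 1.19 ± 0.553 to 32.5 ± 2.58 TPM and XTH31, the most expressed of the list at 24 h, fell from 714 ± 24.6 to 530 ± 45.6 TPM. XTH11, outside the list, fell from 48.7 ± 6.90 to 1.57 ± 0.267 TPM. Of 4 endo-beta-mannanases, which digest the endosperm wall, MAN6 rose by 0.31 and 3 were not called, with MAN7 at 187 ± 32.0 and 193 ± 29.8 TPM.

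Mitotic genes rose together, whereas those of DNA replication were split. All 22 mitotic entries were members, 20 rose and none fell, with a median of 2.31 and a sum of 21.7 ± 3.81 TPM at 24 h and 159 ± 14.7 TPM at 48 h. Of the 22, 16 passed the minimum through 48 h alone. CYCB1;2 (AT5G06150, CYC1BAT in the reference), a cyclin that drives entry into mitosis, had 0, 0.141 and 0.0475 TPM at 24 h and 10.7, 8.64 and 12.3 TPM at 48 h (3.43 ± 0.11, adjusted p = 2.2e-17). SYP111, the KNOLLE protein that builds the new wall between daughter cells, rose from 0.180 ± 0.120 to 16.5 ± 3.63 TPM. The cyclin CYCB1;1 was an exception at 4.1 ± 0.339 and 4.16 ± 0.842 TPM, after 36.2 TPM at 6 h. In DNA replication 8 of 17 members rose and 2 fell, with a median of 0.25. Without replicate 3 of 48 h 5 rose, and with a pseudocount of 0.1 4 rose and 1 fell. ICU2 (AT5G67100), the catalytic subunit of DNA polymerase alpha, rose from 3.51 ± 0.223 to 6.58 ± 0.477 TPM (0.75 ± 0.09, adjusted p = 1.2e-07). RNR2A (AT3G23580), a small subunit of ribonucleotide reductase, fell from 83.5, 82.8 and 86.3 TPM to 26.2, 28.1 and 24.9 TPM (-1.64 ± 0.07, adjusted p = 4.7e-15). The sum of the replication list was highest at 6 h, with 1540.8 TPM, of which TSO2, another ribonucleotide reductase subunit, made 1209.2 TPM.

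Of the D-type cyclins, E2F factors and RBR1, which govern the start of the cell cycle, 7 of 13 rose and 2 fell. CYCD3;1 rose from 7.98 ± 1.33 to 25.7 ± 2.58 TPM and CYCD2;1, higher at both times, fell from 99.1 ± 2.65 to 87.0 ± 2.71 TPM. Inhibitors of cyclin-dependent kinases went mainly down, 5 of 8, such as ICK3 (KRP5) from 29.1 ± 3.70 to 15.7 ± 1.55 TPM. Of 12 histone H3 and H2A genes 7 rose and 3 fell. HTA13 rose from 50.6, 47.4 and 41.6 TPM to 109, 90.6 and 101 TPM, and H3 genes AT1G09200 and AT5G65360, which encode the replication-dependent form, rose by 1.08 ± 0.11 and 0.88 ± 0.08. AT4G40030 and AT5G10980, which encode the replacement form H3.3, fell by 0.39 and 0.41 on the log2 scale. Histone genes are near-identical copies, and reads shared among them may have been divided differently.

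Promoters of the replication and mitotic genes hold motifs that are textbook marks of their pathways, and 1 window of each list is shown so that they can be seen. Every promoter was searched over the 250 bases before its start, on both strands, in RefSeq windows of the TAIR10.1 build, and a match is a string of letters and not a known site of binding. The E2F motif, TTCCCGC or TTGGCGC, stood in 55.6% of the 18 replication promoters, 1.91% of the members' promoters and 1.92% of all 27443 protein-coding ones. The MSA core, CNAACGG, stood in 45.5% of the 22 mitotic promoters and 5.12% of the members'. It was not particular to the mitotic list. It also stood in 50% of the 12 histone H3 and H2A promoters. In the list of abscisic acid kinases and transcription factors it stood in 40% of 10. Capitals mark E2F motifs in the first window below, of ICU2 at chr5:26776753-26776952 on the plus strand, and MSA cores in the second, both on either strand, of CYCB1;2 at chr5:1861704-1861903 on the minus strand.
ICU2: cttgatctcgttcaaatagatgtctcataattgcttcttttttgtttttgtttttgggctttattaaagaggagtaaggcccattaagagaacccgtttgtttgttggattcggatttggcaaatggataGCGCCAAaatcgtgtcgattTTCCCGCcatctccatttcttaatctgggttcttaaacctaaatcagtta
CYCB1;2: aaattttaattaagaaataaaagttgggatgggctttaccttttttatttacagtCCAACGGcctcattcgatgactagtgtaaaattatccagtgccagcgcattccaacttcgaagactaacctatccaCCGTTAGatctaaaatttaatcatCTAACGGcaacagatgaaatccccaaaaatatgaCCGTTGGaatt
Both were chosen after the search as the gene of smallest adjusted p in its list with the motif in a window free of annotated genes. The windows of the genes with the smallest adjusted p, RNR2A and CYCB1;4, hold no match to the motif of their list over 200 bases, nor do those of LHCB3 and M10 to the motifs of theirs.

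Genes that make ribosomes fell as a body. All 15 ribosome biogenesis genes fell, by 0.50 to 1.69 on the log2 scale with a median of -1.04, and 19 of 20 cytosolic ribosomal protein genes fell with a median of -0.63. FIB2 (AT4G25630), fibrillarin, which methylates ribosomal RNA in the nucleolus, had 396, 390 and 369 TPM at 24 h and 119, 132 and 128 TPM at 48 h (-1.61 ± 0.09, adjusted p = 5.5e-13). NUC-L1, nucleolin, fell from 907, 936 and 890 TPM to 320, 353 and 336 TPM, after 1696.4 TPM at 6 h. The ribosomal proteins as a sum took 30209.1 ± 828 TPM at 24 h and 19948 ± 793 TPM at 48 h. PGY2, a ribosomal protein L9, was the member not called, at 524 ± 43.7 and 446 ± 28.1 TPM. The translation elongation factor AT5G60390, second in TPM at 24 h, fell from 9390.1 ± 159 to 6250 ± 50.6 TPM, and the ubiquitin genes UBQ5 and UBQ6, which are fused to ribosomal proteins, fell by 0.61 and 0.65 on the log2 scale. The site II motif, TGGGCC, was found in 60% of the 15 biogenesis promoters, 55% of the 20 ribosomal protein promoters and 17.7% of the members' promoters. Across the whole step it stood in 22.9% of the promoters of genes that fell and 13.1% of those that rose, but in 18.4% of those that fell by 1 or more on the log2 scale. It was also found in 55.6% of the replication promoters and 53.8% of the 13 of small heat shock genes and their factors, lists that did not fall as a whole. The telobox, AAACCCT, stood in 9.66% of the promoters of all genes that fell and 4.15% of those of all that rose. RID2 (AT5G57280), a methyltransferase needed for ribosome assembly, fell from 65.7 ± 3.81 to 25.7 ± 3.55 TPM, and its window at chr5:23204177-23204376 on the plus strand, chosen in the same way, carries a site II motif in capitals.
RID2: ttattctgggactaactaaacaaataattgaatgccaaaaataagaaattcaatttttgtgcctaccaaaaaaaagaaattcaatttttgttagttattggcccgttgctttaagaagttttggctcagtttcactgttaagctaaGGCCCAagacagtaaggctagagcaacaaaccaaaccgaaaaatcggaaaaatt

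Seed proteins took different courses, and the label of the tissue as seeds holds in that these genes led the dry libraries. The 9 storage protein genes summed to 170713.4 TPM at 0 h, 57999.9 TPM at 6 h, 10410.3 ± 1719.7 TPM at 24 h and 3929.1 ± 390 TPM at 48 h. Between 24 h and 48 h 8 fell and 1 rose, with a median of -2.6. SESA3 (AT4G27160), a 2S albumin, had 1652, 1004.8 and 1447 TPM at 24 h and 58.4, 59.0 and 57.6 TPM at 48 h (-4.50 ± 0.22, adjusted p = 2.3e-14). SESA1 to SESA4 lie side by side and are close copies, and they fell by 2.93, 2.6, 4.50 and 3.67 on the log2 scale. CRU2, a cruciferin of the 12S globulins, fell from 63.3 ± 0.609 to 5.64 ± 0.600 TPM, while CRA1, the most expressed of them at 24 h, fell only from 3994.1 ± 1247.4 to 2215 ± 231 TPM (-0.80 ± 0.22, adjusted p = 0.0031). PAP85 (AT3G22640), a vicilin-like globulin, went the other way, with 173, 224 and 330 TPM at 24 h and 584, 616 and 500 TPM at 48 h (1.27 ± 0.27, adjusted p = 0.00025), after 17126.7 TPM at 0 h. LCR67 and PDF2.1, small cysteine-rich proteins of the defensin kind, fell from 5221.9 ± 317 to 356 ± 54.4 TPM and from 343 ± 45.4 to 21.4 ± 5.80 TPM.

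The RY motif, CATGCA, which seed maturation factors of the B3 class bind, was present in 88.9% of the 9 storage promoters and in all 7 of the oil body list, against 7.53% of the members' promoters. It was no mark of falling genes in general, with 6.69% of the promoters of genes that fell and 9.11% of those that rose. The window of SESA4 (AT4G27170) at chr4:13613396-13613595 on the plus strand shows in capitals 6 RY motifs, on either strand and in part overlapping, and the G-box CACGTG. That of AT3G17520, a late embryogenesis protein, at chr3:6000448-6000647 on the minus strand shows a G-box and, read on the complementary strand, the abscisic acid response element ACGTGGC.
SESA4: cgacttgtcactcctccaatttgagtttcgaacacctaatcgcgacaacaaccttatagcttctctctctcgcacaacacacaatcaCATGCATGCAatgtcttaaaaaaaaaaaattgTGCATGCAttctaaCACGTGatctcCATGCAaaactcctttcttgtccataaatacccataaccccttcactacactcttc
AT3G17520: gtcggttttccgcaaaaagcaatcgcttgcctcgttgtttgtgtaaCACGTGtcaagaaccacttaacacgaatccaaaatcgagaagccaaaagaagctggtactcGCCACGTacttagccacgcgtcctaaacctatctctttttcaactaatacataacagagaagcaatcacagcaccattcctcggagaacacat
The 2 genes went in opposite directions: SESA4 fell from 1107.8 ± 147 to 86.6 ± 16.5 TPM and AT3G17520 rose from 651 ± 168 to 2284.3 ± 9.82 TPM. G-boxes stood in 55.6% of the storage and 57.7% of the 26 late embryogenesis promoters, and in 7.79% of the members'.

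The late embryogenesis abundant proteins, hydrophilic proteins that protect dry cells, rose again after a long fall. All 26 entries were members with 1 TPM or more in all 24 h libraries, 20 rose and 3 fell, and the median was 1.11. Their sum was 152526.6 TPM at 0 h, 29181 TPM at 6 h, 9201.5 ± 1608.2 TPM at 24 h and 22551.2 ± 1925.1 TPM at 48 h. AT3G15670 had 827, 1239.3 and 1370.1 TPM at 24 h and 5129.9, 5646.6 and 4774.9 TPM at 48 h, without overlap (2.21 ± 0.15, adjusted p = 5.3e-12). The dehydrin RAB18 rose from 351 ± 104 to 1938.4 ± 200 TPM, and GEA6, the Em6 protein, from 196 ± 61.9 to 800 ± 155 TPM. LTI30, another dehydrin, rose from 2.61 ± 0.485 to 19.0 ± 2.52 TPM. AT3G02480, annotated to the same protein family but outside the list, rose from 964 ± 115 to 9307.4 ± 666 TPM (3.27 ± 0.12, adjusted p = 8.7e-17) and had at 48 h the second highest TPM of the nuclear genes. Against this course M10 (AT2G41280) fell from 46.3, 50.2 and 54.1 TPM to 5.71, 5.76 and 6.87 TPM, and M17 from 88.2 ± 11.9 to 22.1 ± 6.58 TPM. COR47 and SAG21, which were nearly absent from the dry seed, were not called. Replicate 1 of 24 h was the lowest of its group for AT3G15670, as it was for RAB18, which had 243 TPM there.

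The oil body proteins, which coat lipid droplets, were divided. OLEO2 (AT5G40420), an oleosin, rose from 112, 145 and 197 TPM to 672, 823 and 625 TPM (2.24 ± 0.20, adjusted p = 8.2e-10) and OLEO3 from 62.8 ± 8.17 to 136 ± 22.8 TPM. OLEO1, the main oleosin of the dry seed, was at 399 ± 82.6 and 373 ± 59.1 TPM. Of 7 members 2 rose and 2 fell, and without replicate 3 of 24 h none fell. In the metabolism of raffinose sugars 6 of 8 rose and 2 fell, with SIP1, the raffinose synthase RS5, going from 1.25 ± 0.252 to 9.20 ± 2.25 TPM. The fallers, SIP2 and DIN10, had the highest levels at 24 h, 127 ± 9.23 and 185 ± 55.0 TPM, and the summed TPM of the list was 410 ± 39.0 at 24 h and 309 ± 16.3 at 48 h, without overlap of libraries. Small heat shock proteins and their factors stayed far below their dry seed level of 26162.2 TPM in sum, at 280 ± 73.5 and 266 ± 95.7 TPM, with 4 of 12 rising and 2 falling, or 4 falling without replicate 2 of 24 h. In shares 33.3% rose and 16.7% fell, against 36.2% and 28.9% of all members.

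**Figure D3:**
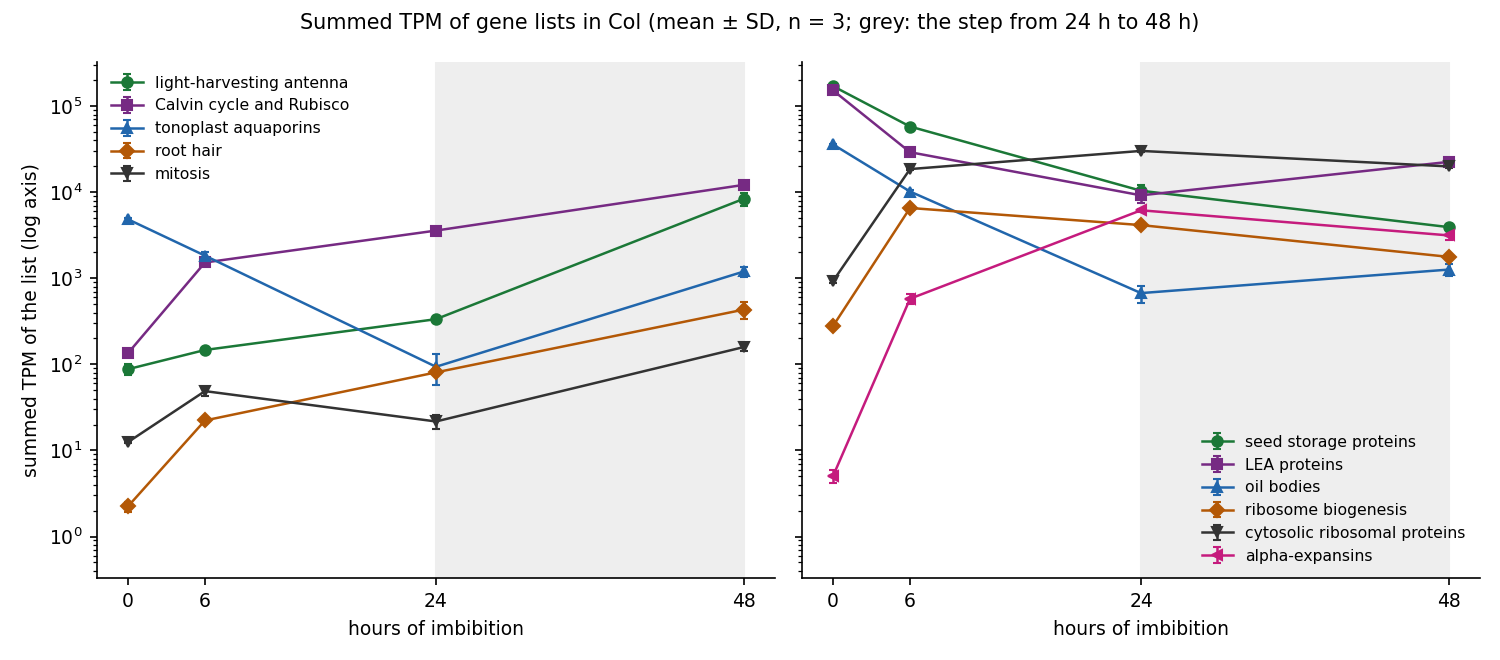
Summed TPM of 11 gene lists in Col at 0, 6, 24 and 48 h, on a logarithmic axis, as the mean of 3 libraries with error bars of ± SD. The late embryogenesis list goes from 152526.6 to 29181, 9201.5 and 22551.2 TPM, the antenna list from 87.9 to 147, 335 and 8401.2 TPM, and the ribosome biogenesis list from 279 to 6561.9, 4152 and 1773.5 TPM.

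In the machinery that turns stored oil into sugar more genes fell than rose, 13 against 4 of 23, with a median of -0.26. The summed TPM of the list went the other way, from 19477.4 ± 577 to 21811 ± 805, with all 3 libraries of 48 h above those of 24 h. ICL (AT3G21720), isocitrate lyase of the glyoxylate cycle, had the highest TPM of any nuclear gene at both times, with 9105.1, 9533.4 and 9824.3 TPM at 24 h and 13668.3, 13254.2 and 12682.3 TPM at 48 h (0.48 ± 0.12, adjusted p = 0.0011). MLS, malate synthase, the other enzyme particular to the cycle, was at 3131 ± 195 and 3141.5 ± 207 TPM. SDP1 (AT5G04040), the lipase that starts oil breakdown, fell from 56.0 ± 1.56 to 31.6 ± 1.85 TPM, and PCK1, which leads into sugar synthesis, from 1878.9 ± 39.7 to 1457.9 ± 14.6 TPM. The acyl-CoA oxidases were split, ACX1 rising from 76.8 ± 1.99 to 175 ± 17 TPM and ACX2 falling from 317 ± 4.26 to 233 ± 19.2 TPM.

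In the abscisic acid pathway the enzymes of breakdown rose. CYP707A1 (AT4G19230), a hydroxylase that inactivates the hormone, had 1.87, 2.50 and 3.16 TPM at 24 h and 33.6, 30.9 and 34.4 TPM at 48 h (3.29 ± 0.14, adjusted p = 9.6e-16), CYP707A3 rose from 6.74 ± 1.57 to 33.5 ± 6.53 TPM and CYP707A2 from 3.83 ± 1.04 to 11.1 ± 1.56 TPM. CYP707A4 had no read at either time. Of 9 synthesis genes 6 were members and ABA1, ABA2 and AAO3 rose, by 1.31 ± 0.14, 0.77 ± 0.14 and 0.84 ± 0.15, while NCED9 was called lower (-0.75 ± 0.29, adjusted p = 0.025). That call was lost when replicate 1 or 2 of 24 h or replicate 2 of 48 h was left out, and in the fit of only the groups compared. NCED3, of the same rate-limiting enzyme family, was at 2.28 ± 1.45 and 1.76 ± 0.463 TPM. None of 9 receptors rose and 3 fell, of which PYL6 was no longer called without replicate 1 of 24 h or any single library of 48 h. PYL2 fell from 176 ± 26.7 to 58.5 ± 8.77 TPM and PYR1 from 561 ± 22.5 to 304 ± 10.8 TPM. Of the PP2C phosphatases, which the receptors inhibit, PP2CA fell from 36.9 ± 2.19 to 16.9 ± 2.80 TPM and HAB1 rose from 11.4 ± 2.16 to 21.5 ± 1.1 TPM. The transcription factors went both ways. ABI4 (AT2G40220) fell from 267, 264 and 261 TPM to 107, 123 and 121 TPM (-1.17 ± 0.14, adjusted p = 9.3e-08) and ABI3 from 134 ± 8.06 to 76.2 ± 3.76 TPM. ABF3 rose from 3.69 ± 0.282 to 23.8 ± 2.25 TPM (2.4 ± 0.10, adjusted p = 1.2e-15), and ABI5 was at 35.7 ± 7.52 and 44.1 ± 6.26 TPM. DOG1, the dormancy gene, was at 0.144 ± 0.124 and 0.147 ± 0.0652 TPM and not a member, after 30.1 TPM at 0 h.

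Gibberellin synthesis fell in 6 of 9 member genes. GA20OX3 (AT5G07200), an oxidase of the last steps, had 57.5, 57.1 and 73.5 TPM at 24 h and 7.61, 9.19 and 6.63 TPM at 48 h (-2.85 ± 0.11, adjusted p = 3.7e-16), after 257 TPM at 6 h. GA3OX2, which makes the active hormone, fell from 123 ± 14.1 to 89.1 ± 4.61 TPM, and GA3OX1, its relative, rose from 9.72 ± 1.98 to 20.7 ± 4.47 TPM. The 2 members among the inactivating oxidases, GA2OX6 and GA2OX2, rose to 2.1 ± 0.441 and 2.65 ± 0.126 TPM. Among the DELLA proteins, the repressors that gibberellin removes, GAI (AT1G14920) fell from 106 ± 4.71 to 42.8 ± 4.61 TPM and RGL3 from 120 ± 5.20 to 57.3 ± 3.52 TPM. Of the 9 member genes of receptors and DELLA proteins 7 fell and 1 rose. The riser was the receptor GID1B, from 1.17 ± 0.216 to 4.49 ± 0.788 TPM, and with a filter at 5 TPM no gene of the list was called higher. GID1A, another receptor, was called lower, a call that was lost with median-of-ratios scaling.

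Auxin and cytokinin genes were on the rise. All 7 member Aux/IAA genes, early targets of auxin that repress its response, rose, of 9 entries, and IAA7 went from 1.79 ± 0.211 to 28.6 ± 3.60 TPM. Of 15 genes of auxin transport and synthesis 10 rose and 2 fell. The importer LAX3 rose from 0.0503 ± 0.0584 to 8.68 ± 1.22 TPM. All 4 member type-A response regulators, which cytokinin induces, rose, of 6 entries, ARR4 from 3.91 ± 0.0694 to 18.8 ± 0.360 TPM. Of these 4 regulators, 3 passed the minimum through the 48 h libraries alone, as did 2 of the 7 Aux/IAA genes. Such genes had to be higher at 48 h, so both counts are descriptions. In the brassinosteroid list DWF4, a synthesis gene, fell from 22.1 ± 1.1 to 9.93 ± 1.21 TPM.

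Patterning genes of the meristems moved both ways, 4 rising and 4 falling of 12 for the root and the same of 10 for the shoot. These shares, 33.3% each way for the root and 40% for the shoot, are near those of all members, 36.2% rising and 28.9% falling. CLV3 and STM, shoot stem cell genes, fell by 1.1 and 0.57 on the log2 scale, CLV1 rose by 0.88 ± 0.11, and BBM and AIL6, embryo and root identity factors, fell by 0.78 and 1.03. PLT2, SHR and SCR were not called. In the stomatal lineage FMA, a late factor of guard cells, rose from 0.583 ± 0.217 to 2.08 ± 0.294 TPM and EPF2, a signal of early lineage cells, fell from 17.3 ± 2.21 to 7.44 ± 1.91 TPM.

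Of 9 hypoxia response members, of 11 entries, 3 fell and 1 rose, ADH1, alcohol dehydrogenase, from 42.4 ± 2.91 to 62.8 ± 7.97 TPM, and LBD41, a transcription factor, was at 395 ± 151 and 269 ± 74.3 TPM. The share that fell, 33.3%, is near the 28.9% of all members. Nutrient and secondary metabolism showed single large shifts. Nitrate reductase NIA2 rose from 13.8 ± 1.17 to 105 ± 14.2 TPM, and the plastid enzymes of ammonium assimilation, GS2 and GLU1, from 12 ± 1.65 to 140 ± 15.6 TPM and from 0.760 ± 0.146 to 23.9 ± 4.99 TPM. Of the 11 member nitrogen genes 7 rose and 1 fell. Flavonoid genes rose in 6 of 7 members, of 14 entries, with chalcone synthase TT4 going from 107 ± 8.59 to 395 ± 54.9 TPM. Anthocyanin genes such as DFR and LDOX stayed under 1 TPM. Glucosinolate genes fell in 6 of 12 members and rose in 4, with SOT16 going from 623 ± 23.0 to 237 ± 9.35 TPM. ATSDI1 (AT5G48850), a gene known to respond to sulfur shortage, had 57.2, 67.2 and 69.4 TPM at 24 h and 1.05, 2.06 and 1.78 TPM at 48 h (-4.66 ± 0.13, adjusted p = 1.3e-18), the largest fall with a symbol, and LSU2 and LSU3, small proteins named for their response to low sulfur, fell from 15.2 ± 1.41 to 0.468 ± 0.455 TPM and from 46.3 ± 5.56 to 3.14 ± 0.945 TPM. BGLU28, a glucosidase, fell from 7.20 ± 1.15 to 0.423 ± 0.301 TPM. PYK10, the glucosidase of root bodies, rose from 1715.5 ± 62.6 to 5225.7 ± 272 TPM. PAP17, an acid phosphatase, fell from 365 ± 2.69 to 64.3 ± 4.24 TPM.

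REF6 (AT3G48430) had 20.4, 23.8 and 26.1 TPM at 24 h and 15, 13.6 and 15.7 TPM at 48 h, without overlap, and fell (-0.62 ± 0.12, adjusted p = 0.00012). Its relative ELF6, also a demethylase of H3K27me3, was at 7.84 ± 1.25 and 9.46 ± 0.501 TPM and not called (0.25 ± 0.17, adjusted p = 0.21). The Polycomb methyltransferase CLF rose from 10.4 ± 0.196 to 14.5 ± 1.34 TPM, and the subunits FIE and MSI1 fell from 20.7 ± 1.37 to 12.2 ± 0.524 TPM and from 66.0 ± 0.419 to 39.1 ± 1.81 TPM. Of the 11 genes of the list 3 rose and 3 fell, against 36.2% rising and 28.9% falling over all members. FLC, a flowering repressor and known Polycomb target, fell from 11.3 ± 1.38 to 7.83 ± 1.46 TPM, and an antisense RNA spans the locus.

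Markers of tissues other than the embryo were checked. No member was found among the pollen and flower markers, whose sums did not exceed 0.345 TPM at either time. EPR1 (AT2G27380), an endosperm wall protein and the only 1 of 5 endosperm markers above the minimum, fell from 804, 863 and 692 TPM to 333, 315 and 425 TPM, while the other 4 were at or below 0.107 TPM. Of the seed coat markers in the table MUM4 rose from 13.6 ± 0.364 to 28.8 ± 3.25 TPM, a gene also used outside the coat, and the other 4 were at or below 0.137 TPM. The endosperm marker fell at the same time as the storage proteins and the expansins with high 24 h levels, and its part in those changes was not tested.

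The same step in ref6c shares no library with that in Col, so the difference of the 2 steps could be tested. Over all genes tested 22.0% differed, 5.78% with a higher step in ref6c and 16.2% with a lower one. Among the members it was 3987, or 22.5%, of which 1039 (5.87%) had a higher and 2948 (16.6%) a lower step in ref6c. The antenna genes had a median of 4.90 in Col and 1.51 in ref6c, with a lower step in ref6c for 19 of 21, and the photosystem subunits 3.49 and 1.06, lower for 22 of 22. CAB1 had a mean of 48.6 TPM in ref6c at 48 h and of 2080 TPM in Col. LHB1B2 (AT2G34420), a photosystem II antenna gene that overlaps a gene on the opposite strand, was not called as different, with steps of 6.32 in Col and 5.85 in ref6c (difference -0.47 ± 0.36, adjusted p = 0.40). Root hair genes had a median of 2.50 in Col and 0.32 in ref6c and differed in 10 of 16, and the 7 xylem genes had 2.19 and 0.20. Mitotic genes had medians of 2.31 and 1.39, and 17 of 22 had a lower step in ref6c. All 7 xylem genes, 16 of the 22 mitotic genes and 8 of the 16 root hair genes entered through the Col libraries of 48 h alone. So did 4 of the 21 antenna genes and 3 of the 22 photosystem genes. This choice by itself favours a larger step in Col, so the medians and counts of these 5 lists are descriptions. The chloroplast-encoded genes went the other way from the nuclear antenna genes, with medians of 0.31 in Col and 0.69 in ref6c, a higher step in ref6c for 10 of 79 and a lower one for none.

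Storage proteins had a median of -2.6 in Col and -1.33 in ref6c, with a higher step in ref6c for 7 of 9, and their sum at 48 h was 3929.1 ± 390 TPM in Col and 18933.3 TPM in ref6c. Ribosome biogenesis genes had medians of -1.04 and -0.66 and differed in 9 of 15. The late embryogenesis list had medians of 1.11 and 0.84, with 2 of 26 called as different. Expansin EXPA1 was at 192 ± 42.0 and 210 ± 9.91 TPM in ref6c where it fell in Col, a difference of 2.55 ± 0.19 (adjusted p = 2.5e-10). The step of REF6 itself did not differ by the test (0.37 ± 0.17, adjusted p = 0.14), with 10.2 ± 1.69 and 8.35 ± 0.701 TPM in ref6c. Transcript of REF6 was thus present in the mutant, and the labels do not give which part of the gene the mutation alters.

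**Figure D4:**
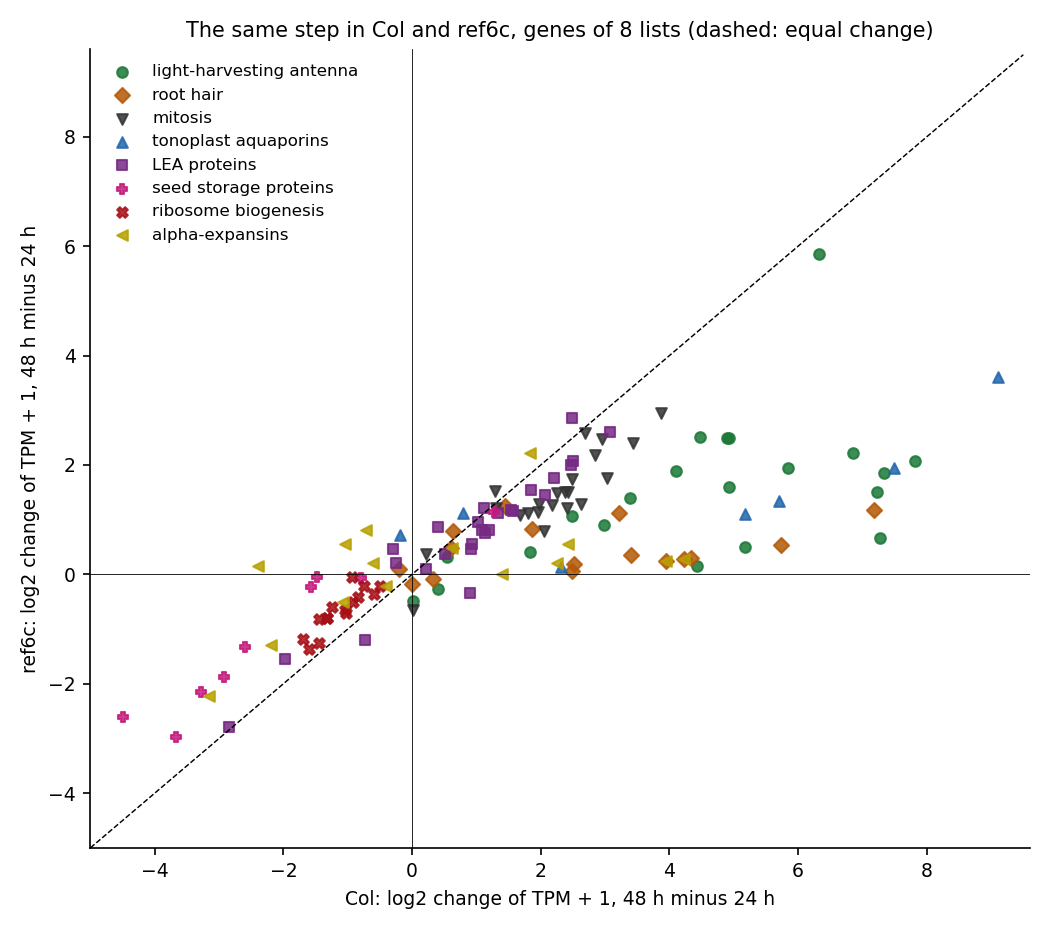
Log2 change from 24 h to 48 h in Col (horizontal axis) and in ref6c (vertical axis) for the members of 8 gene lists, 1 point per gene, with a dashed line where the changes are equal. Most antenna and root hair genes lie below the line, with medians of 4.90 against 1.51 and 2.50 against 0.32, and the late embryogenesis genes lie near it, with 1.11 against 0.84.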

How the data were processed

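RNA was extracted from whole seeds and sequenced on BGISEQ-500 libraries, per the labels' protocols. The deposited table gives TPM values made by the authors for 23826 genes, and each column totals 1000000. Reads were trimmed with fastp 0.20.1 and aligned with HISAT2 2.1.10 to TAIR10, and DESeq2 1.26.0 is also named, per the submitters' processing notes. The counter and the strand setting are not given in the sources used here.

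Multiplied by gene span, introns included, 99.975% of the 462563 values examined came out as whole reads within 0.01, which gave 16624632 to 19260850 reads per library over all 24. The number of reads limits precision for low genes. Since TPM is a share, a rise of abundant genes lowers all others.

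limma 3.58.1 (R 4.3.3) was fitted with trend to log2(TPM + 1) over all 24 libraries with 8 group means, for 18481 genes with TPM of 1 or more in at least 3 of 24 libraries, and p-values were adjusted by Benjamini-Hochberg over all of them. All adjusted p are from this fit. The difference of steps is the interaction of the same fit. Tested on simulated data for the Col comparison, the fit recovered 85.1% of genes changed 1.5-fold and 94% of those changed 2-fold among 17367 genes, with 22 false calls. In the simulation 17167 genes were left unchanged. The changed ones went evenly up and down and were drawn from genes above a minimum of reads. In the real data most genes were called and large rises prevailed, so these rates need not hold there or for genes of few reads.

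The members, the gene lists and the naming rule were chosen with earlier results of these data known. Genes named by rule are those with a symbol that moved most between the times (20 each way, called, without overlap of libraries and averaging 5 TPM or more at either time), the 10 most abundant nuclear genes at each time, up to 4 members of each list with the smallest adjusted p and all of lists of up to 10, REF6 and ELF6, and the 10 largest interactions each way. Further list members were picked after their values were seen, to show a list's range. Gene names and promoters are from RefSeq, TAIR10.1, in which 23641 IDs matched. Alternatives were another pseudocount, filter, scaling, count model, fold minimum, sample set, a replicate block and leaving out each library. Some single-gene values are not reported here.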

Additional observations from a re-analysis of the deposited data

Results flagged for a closer look

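The change from 24 h to 48 h differed between ref6c and Col for 3987 members in the interaction of the limma fit. The differences below are the step in ref6c minus the step in Col, on log2(TPM + 1), for the genes named by rule with the largest values each way.

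A higher step in ref6c was found for ATSDI1 (3.24), PR1 (3.12), EXPA1 (2.55), PUB19 (2.42), BGLU28 (2.41), EDL3 (2.11), GASA6 (1.97), SESA3 (1.90), scpl44 (1.75) and GSTF6 (1.67). PR1, a marker of salicylic acid defence, fell in Col from 1.75 ± 0.284 to 0.678 ± 0.0647 TPM and was at 4.34 and 28.7 TPM in ref6c. PUB19 had 69.3, 42.7 and 18.6 TPM in the Col libraries of 24 h, and EDL3 had 12.9, 4.50 and 0.878 TPM, so their Col steps rest on a wide 24 h group.

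A lower step in ref6c was found for GER3 (-6.94), LHCB2.2 (-6.61), PORA (-6.33), PRP3 (-6.01), AGP3 (-5.91), PSAK (-5.85), CAB2 (-5.75), LHCB2.1 (-5.71), RHS13 (-5.62) and GAMMA-TIP (-5.55). GER3, a germin-like protein, had 0, 0.227 and 0 TPM in Col at 24 h and 254, 216 and 355 TPM at 48 h, and 1.16 TPM in ref6c at 48 h.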

How the results depend on the processing

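Of the 344 genes named by rule, 294 were called. Among those called, 18 lost the call in at least 1 of 16 alternatives, the fold minimum not counted. With the 2-fold minimum 114 lost the call. None of the 344 changed direction. Deviations from the group means of Col 24 h and 48 h correlated at 0.124, 0.115 and -0.00585 for equal replicate numbers. For unequal numbers the correlations were -0.162 to 0.0963. These values are small and do not settle whether the numbers pair the samples, which the labels do not say. With the replicate block 11561 members were called (6425 higher, 5136 lower) and 3997 interactions. At a minimum of 2-fold 3257 were called (2511 higher, 746 lower) and 1621 interactions (134 higher, 1487 lower). With a pseudocount of 0.1, 599 interactions were higher and 2663 were called in all. With a filter at 5 TPM, 1909 were lower of 2765. Recovered reads in voom called 11654 of 17599 members and 3405 interactions, and organelle genes, which had no matched length, gave no value there. Median-of-ratios scaling called 7031 higher and 4417 lower. Leaving out a library gave 10626 to 11088 calls, 5891 to 6221 higher and 4624 to 4917 lower, and 3404 to 4039 interactions, 717 to 1080 higher and 2643 to 3073 lower. The cause of these differences was not tested. A fold minimum applies to fewer genes by construction. Genes near 1 TPM rest on few reads.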

Other observations

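Families sorted by the product names of the annotation were chosen after first results were seen and are given as description. Family members that passed the minimum through the 48 h libraries alone had to be higher at 48 h, and they were not counted apart. Of 34 member class III peroxidases, which cross-link or loosen walls, 32 rose and 2 fell, with a median of 2.66. AT5G64100 had 3.92, 1.43 and 1.51 TPM at 24 h and 243, 182 and 250 TPM at 48 h. Among fasciclin-like and other arabinogalactan proteins, which sit at the cell surface, 32 of 39 members rose and 3 fell, FLA9 from 11.8 ± 2.55 to 327 ± 42.0 TPM. Pectin methylesterases and their inhibitors rose in 27 of 37 members and fell in 5. Kinesins, a family of motor proteins not limited to those of cell division, rose in 18 of 24 and fell in 1.

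Other families went down. Of 231 member pentatricopeptide repeat proteins, which process organelle RNA, 163 fell and 10 rose, with a median of -0.55. Of 42 proteasome subunits 32 fell and none rose, with a median of -0.34. Against this stand 36.2% of all members rising and 28.9% falling.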
